A study of Rattus norvegicus with 12 samples.

Results

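The genes that mark the passage from osteoblast to osteocyte were followed in the repair tissue of a rat bone defect. They were 10 genes picked by name: Runx2, Sp7, Alpl, Ibsp, Bglap, Spp1, Dmp1, Phex, Mepe and Sost. The deposited table held 22601 genes, and all 10 were in it. All 10 also passed the filter on low values, which kept 12633 genes that reached 1 FPKM in 3 or more libraries. FPKM counts the sequenced fragments of a gene per kilobase of its length, scaled to the total of the library, so levels of different genes can be set beside each other. The tissue came from the distal femur of Sprague Dawley rats aged 8 weeks, in which a hole had been drilled through the cortex, and was taken 2 weeks after the defect was made. The Control group received no scaffold. The other groups received a printed scaffold of gelatin methacryloyl hydrogel (Hydrogel), of polycaprolactone (PCL), a polyester that degrades slowly, or of the resorbable ceramic β-tricalcium phosphate (β-TCP). Each of the 4 groups had 3 libraries, and all 4 groups carried the same surgical injury. The study's methods speak of independent samples in each group, but the labels do not tie each library to a rat, so the p-values measure the spread between these libraries. RNA was taken from whole tissue, in which fewer cells of a type and less RNA per cell cannot be told apart. By the study's methods, newly formed tissue was sampled in Control. In the scaffold groups it was the niche made up of scaffold, cells and regenerated tissue. This difference in sampling cannot be told apart from an effect of the scaffolds.

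Bone-forming cells arise from mesenchymal progenitors under the transcription factors Runx2 and Sp7. The young osteoblast displays alkaline phosphatase, the product of Alpl, which releases phosphate for mineral, and then secretes the mineral-binding proteins bone sialoprotein (Ibsp), osteocalcin (Bglap) and osteopontin (Spp1). Some osteoblasts become walled into the matrix as osteocytes, which make Dmp1, Phex and Mepe, regulators of mineral and phosphate, and at last sclerostin (Sost), a secreted inhibitor of Wnt signaling that restrains further bone formation. Osteopontin is also made by osteoclasts and macrophages, and bone sialoprotein also by hypertrophic chondrocytes.

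Depth ranged from 15035925 to 17357830 fragments per library, recovered from the steps of the FPKM values. At this depth a member was covered by at least 125 fragments in every library, the lowest being Sost in Hydrogel replicate 3. A few features of single libraries touch the results. Control replicate 3 was rich in cartilage RNA, with the type II collagen gene Col2a1 at 9071 FPKM against 1298 and 1370.5 FPKM in the other Control libraries and 26.3 to 526 FPKM in the scaffold libraries. It was also poor in blood cell RNA: the erythroid list took 0.925% of its FPKM against 2.93% to 23.0% in the other 11 libraries. Hydrogel replicate 3 was the library with the lowest level of 9 of the 10 members, at a median of 0.461 times the member's median over the 12 libraries. It also had the lowest type I collagen gene Col1a1, at 3635 FPKM. Skeletal muscle RNA was highest there, where the list of 10 tested muscle genes summed to 471 FPKM. β-TCP replicates 2 and 3 were far closer to each other than any other pair of one group. Their mean chi-square per gene was 2.14, against 30.4 to 301 in the other 11 pairs, so the spread within the β-TCP group rests largely on replicate 1. They still differed by more than counting noise and were counted as 2 samples. Whether they came from one RNA sample was not tested. If so, β-TCP would have an n of 2, and the SD and p-values given for it with 3 libraries would be too small. With their average in place of both, 0.127% of all genes were called at limma's adjusted p under 0.05 in β-TCP against Hydrogel and 0.0871% against Control, where 6.13% and 4.78% were called with both. All 43 calls of listed genes in comparisons with β-TCP, which are given further on, were lost with the average, without replicate 2 and without replicate 3, and none changed sign.

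All 10 members were present in each of the 12 libraries, and their order by level was much the same in all groups. Averaged over the 12 libraries, Spp1 stood at 5256 FPKM and Ibsp at 1508 FPKM, followed by Bglap at 385 FPKM and Dmp1 at 226 FPKM. Alpl averaged 133 FPKM, Mepe 99.6 FPKM and Phex 46.2 FPKM. The lowest levels were those of Sp7 at 26.1 FPKM, Sost at 21.5 FPKM and Runx2 at 19.4 FPKM. Spp1 was above Ibsp, Ibsp above Bglap, Mepe above Phex, and Phex above Sp7 in 12 of 12 libraries. Bglap was above Dmp1, and Dmp1 above Alpl, in 11 of 12. Neighbours whose order was not fixed were Alpl and Mepe, in this order in 8 of 12 libraries, and Sp7, Sost and Runx2, where each step held in 7 of 12. The RNAs of the secreted matrix proteins were thus the most abundant, and those of the transcription factors and Sost the least. Which cells made them cannot be read from whole tissue. The place of Bglap is the least certain. The gene length that its FPKM steps imply is 3544 bases, longer than the whole Bglap gene in RefSeq, so its FPKM is divided by a length greater than that of its messenger.

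**Figure D1:**
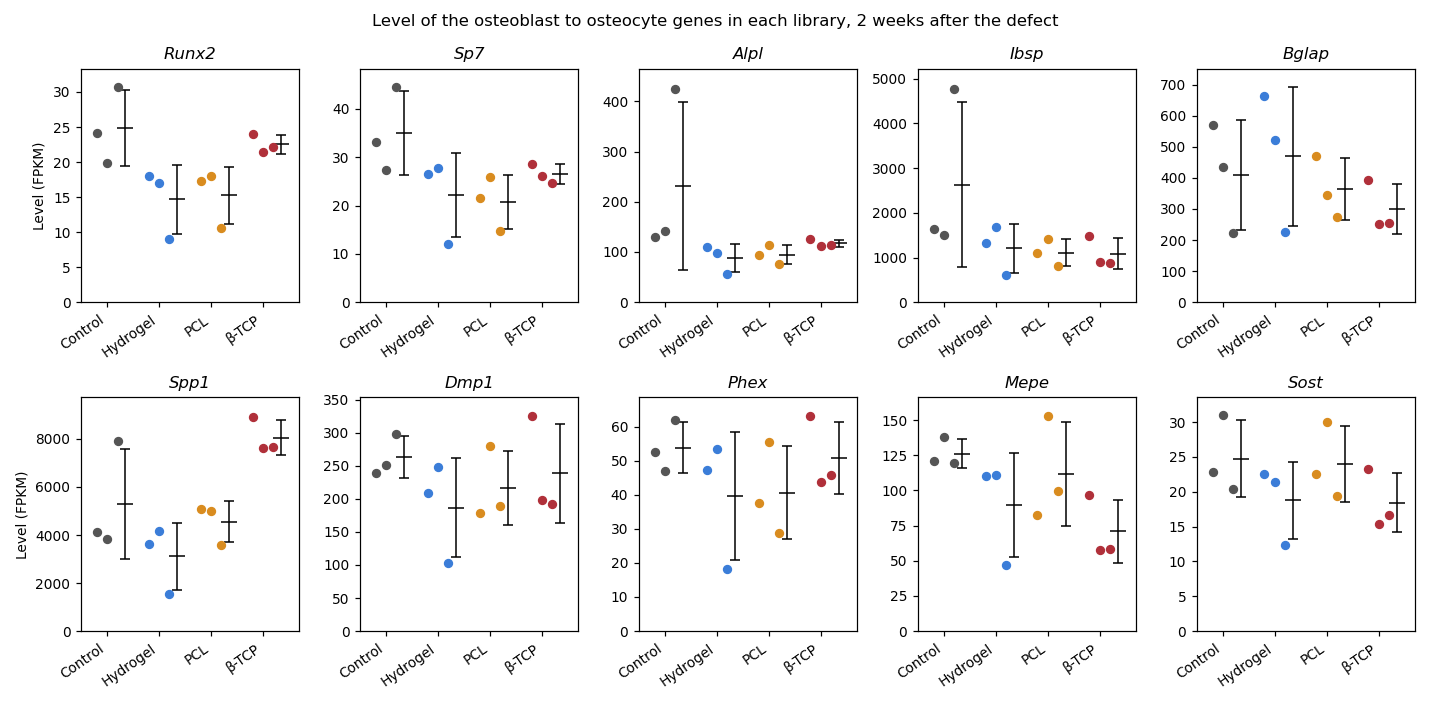
Level of each gene in FPKM (vertical axis, linear from 0) by group, with a point for each of the 3 libraries in replicate order from left to right and, at the right of each group, the mean with a bar of 1 SD. Spp1 was at 7613 to 8896 FPKM in the 3 β-TCP libraries, above the 1539 to 4178 FPKM of the Hydrogel libraries, and Control replicate 3 set the height of the Control bars of Alpl and Ibsp.

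The transcription factors Runx2, the master regulator of the osteoblast lineage, and Sp7 (osterix), which acts after it, had lower means in the Hydrogel and PCL groups than in the Control group, and neither difference passed the test. Runx2 was at 24.2, 19.9 and 30.7 FPKM in the Control libraries, at 18.0, 17.0 and 9.06 FPKM in Hydrogel, at 17.3, 17.9 and 10.6 FPKM in PCL and at 24.0, 21.4 and 22.1 FPKM in β-TCP. All Control and β-TCP libraries thus lay above all Hydrogel and PCL libraries. Relative to Control, the log2 fold change of Runx2 was -0.76 ± 0.27 (SE) in Hydrogel (limma, adjusted p = 0.312), -0.68 ± 0.27 in PCL (adjusted p = 0.234) and -0.12 ± 0.27 in β-TCP (adjusted p = 0.877). Sp7 was at 33.1, 27.3 and 44.4 FPKM in Control, at 26.4, 27.8 and 12.1 FPKM in Hydrogel, at 21.6, 25.9 and 14.7 FPKM in PCL and at 28.7, 26.1 and 24.7 FPKM in β-TCP. Only the PCL libraries did not overlap with Control, at a log2 fold change of -0.73 ± 0.31 (adjusted p = 0.251). Without Control replicate 3, no comparison of Runx2 or Sp7 with Control had an adjusted p under 0.05 either.

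Alpl, the alkaline phosphatase of mineralizing cells, was the member with the lowest values relative to Control in the Hydrogel group. It was at 129.7, 141 and 425 FPKM in Control, at 109.6, 98.3 and 55.4 FPKM in Hydrogel, at 93.5, 114 and 76.9 FPKM in PCL and at 125, 112 and 114 FPKM in β-TCP. Every scaffold library was below every Control library, and Control replicate 3 stood far above all other libraries. The log2 fold change against Control was -1.23 ± 0.41 (SE) in Hydrogel, -1.08 ± 0.41 in PCL and -0.75 ± 0.41 in β-TCP, with limma's adjusted p = 0.312, 0.225 and 0.398. Without Control replicate 3 these values were -0.68, -0.53 and -0.21. The scaffold groups were close together, with means of 87.8 ± 28.6 (SD, n = 3), 94.8 ± 18.5 and 117 ± 6.80 FPKM.

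Among the secreted matrix proteins, Ibsp followed Alpl, whereas Bglap and Spp1 each took a course of their own. Ibsp was at 1631, 1497 and 4771 FPKM in Control, at 1319.6, 1673 and 613 FPKM in Hydrogel, at 1108, 1413 and 804 FPKM in PCL and at 1482, 899.9 and 885 FPKM in β-TCP. The PCL and β-TCP libraries lay below all Control libraries, and the Hydrogel libraries overlapped with them. The log2 fold change against Control was -1.03 ± 0.48 (SE) in Hydrogel, -1.07 ± 0.48 in PCL and -1.10 ± 0.48 in β-TCP, with limma's adjusted p = 0.312, 0.271 and 0.263. Without Control replicate 3, in which the hypertrophic cartilage genes summed to 2669 FPKM against 1407 and 1409 FPKM in the other Control libraries and 2480 FPKM in β-TCP replicate 1, the values in Hydrogel, PCL and β-TCP were -0.50, -0.53 and -0.56. With Hydrogel replicate 3 also left out, the first was -0.07. The hypertrophic cartilage sum does not stand for each of its 4 genes. In β-TCP against Control 3 of them were lower and 1 was higher. Col10a1 had a log2 fold change of -4.07 ± 0.93 (SE) there and Ihh -2.84 ± 0.61, names picked after their values were seen. The part of cartilage cells in the level of Ibsp was not tested.

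Bglap, the osteocalcin gene of mature osteoblasts, had no group that stood apart. It was at 569.9, 436 and 221 FPKM in Control, at 662, 520.1 and 225 FPKM in Hydrogel, at 472, 345 and 274 FPKM in PCL and at 394, 252 and 253 FPKM in β-TCP. The groups overlapped in all 6 comparisons, and the range within Control or Hydrogel was nearly as wide as that over all 12 libraries. Control replicate 3, the library highest for Runx2, Sp7, Alpl and Ibsp, was the lowest of all for Bglap. Limma's adjusted p for Bglap was between 0.378 and 0.916 in the 6 comparisons.

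Spp1, the osteopontin gene, was the only member that changed at an adjusted p under 0.05, and it did so in a single comparison. It was at 4142, 3815 and 7928 FPKM in Control, at 3631, 4178 and 1539 FPKM in Hydrogel, at 5088, 5009 and 3576 FPKM in PCL and at 8896, 7613 and 7657 FPKM in β-TCP. The β-TCP libraries were above all Hydrogel and PCL libraries, and overlapped with Control only through Control replicate 3. The mean was 8056 ± 728 FPKM (SD, n = 3) in β-TCP and 3116 ± 1393 FPKM in Hydrogel. Spp1 rose in β-TCP relative to Hydrogel by 1.49 ± 0.38 (SE) on the log2 scale (limma, adjusted p = 0.0451). Across all genes, 6.13% were called at that threshold in the same comparison, and 3.36% were higher past the study's threshold, which asks for an unadjusted p under 0.05 and a ratio above 2 or below 0.5. The call was near the threshold: it held in 13 of 27 alternative analyses, at adjusted p = 0.000285 to 0.152 over the 27, while the log2 fold change stayed between 1.04 and 2.19. Leaving out 1 library ended the call for 9 of the 12 libraries, all except Control replicates 2 and 3 and Hydrogel replicate 2, at adjusted p = 0.0527 to 0.152. Without Hydrogel replicate 3 the log2 fold change was 1.04 (adjusted p = 0.144), and with β-TCP replicates 2 and 3 averaged as 1 library 1.53 (adjusted p = 0.151).

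The other comparisons of Spp1 did not pass the adjusted threshold. The log2 fold change was 0.68 ± 0.38 (SE) in β-TCP against Control (limma, adjusted p = 0.409), and 1.01 without Control replicate 3 (adjusted p = 0.0869). It was -0.84 ± 0.38 in PCL against β-TCP (adjusted p = 0.221) and 0.66 ± 0.38 in PCL against Hydrogel (adjusted p = 0.636). Osteoclast and macrophage genes were higher in β-TCP as well. Of the 10 osteoclast genes tested, 8 rose in β-TCP relative to Hydrogel at an adjusted p under 0.05, and none fell. The list summed to 10008 to 10530 FPKM in the β-TCP libraries, to 3274 to 5864 FPKM in Hydrogel, to 5261 to 6124 FPKM in PCL and to 4323 to 5794 FPKM in Control. Ctsk, the cathepsin with which osteoclasts digest bone collagen, was at 6919.6, 6883 and 6866 FPKM in β-TCP and at 2706, 3693 and 1614 FPKM in Hydrogel. Of the 10 macrophage genes, 4 rose in the same comparison and 0 fell, and 1 was lower past the study's threshold, where 5.02% of all genes were. The list summed to 4305, 9319 and 9368 FPKM in β-TCP replicates 1, 2 and 3 and to 3650 to 5494 FPKM in Hydrogel. The sum of β-TCP replicate 1 thus lay within the Hydrogel range. Such a sum follows the most abundant genes and does not hold for each gene of the list. Without Hydrogel replicate 3, 2 osteoclast genes and 0 macrophage genes passed at an adjusted p under 0.05, against 9 and 7 of 10 at limma's unadjusted p under 0.05. They numbered 3 and 1 without Hydrogel replicate 1, and 4 and 6 without β-TCP replicate 1. The macrophage genes that rose numbered 1 without Control replicate 1 or PCL replicate 1 or 2, 2 without PCL replicate 3 and 7 without Control replicate 3. Without Control replicate 2, 6 macrophage genes rose and 1 fell. Without Control replicate 3, 1 macrophage gene and 1 osteoclast gene fell. With β-TCP replicates 2 and 3 averaged, 0 of either list passed, against 9 and 7 of 10 at the unadjusted p. The part of osteoclasts and macrophages in the level of Spp1 was not tested.

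The osteocyte genes Dmp1, Phex and Mepe did not change at an adjusted p under 0.05 in any comparison. Dmp1, an acidic phosphoprotein that nucleates mineral, was at 239, 251 and 299 FPKM in Control, at 209, 247 and 103 FPKM in Hydrogel, at 179, 280.2 and 189 FPKM in PCL and at 325, 198 and 193 FPKM in β-TCP. Phex, an endopeptidase of the osteocyte surface that protects against phosphate loss, was at 52.7, 46.9 and 61.9 FPKM in Control, at 47.3, 53.5 and 18.2 FPKM in Hydrogel, at 37.4, 55.6 and 28.9 FPKM in PCL and at 63.0, 43.6 and 45.8 FPKM in β-TCP. For both genes the groups overlapped in all 6 comparisons, with β-TCP replicate 1 the highest and Hydrogel replicate 3 the lowest library. Limma's adjusted p lay between 0.316 and 0.851 for Dmp1 and between 0.348 and 0.941 for Phex. Mepe, a matrix phosphoglycoprotein of osteocytes, differed from them. It was at 121, 138 and 119.5 FPKM in Control, at 110.1, 111 and 46.8 FPKM in Hydrogel, at 82.5, 153 and 99.6 FPKM in PCL and at 97.0, 57.9 and 58.3 FPKM in β-TCP. The Hydrogel and β-TCP libraries were below all Control libraries. In β-TCP the log2 fold change of Mepe against Control was -0.86 ± 0.35 (SE) (adjusted p = 0.21), the lowest of the members other than Ibsp.

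Sost, the gene of sclerostin and the latest of the members in the lineage, varied least, with a range of 2.50 times over the 12 libraries. It was at 22.8, 31.0 and 20.4 FPKM in Control, at 22.5, 21.3 and 12.4 FPKM in Hydrogel, at 22.5, 30.1 and 19.5 FPKM in PCL and at 23.2, 15.4 and 16.6 FPKM in β-TCP. The groups overlapped in all 6 comparisons. The means were 24.8 ± 5.55 FPKM (SD, n = 3) in Control and 24.0 ± 5.45 FPKM in PCL, against 18.8 ± 5.52 FPKM in Hydrogel and 18.4 ± 4.21 FPKM in β-TCP. Limma's adjusted p was at least 0.342 in each comparison.

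Most members had a lower mean with a scaffold than without, and few of the differences passed a test. No member passed the adjusted threshold in a scaffold group against Control, where 0.00792% of all genes did so in Hydrogel, 0.277% in PCL and 4.78% in β-TCP. At limma's unadjusted p under 0.05 the members numbered 3, 4 and 2 of 10, against 15.0%, 18.4% and 18.0% of all genes. Past the study's threshold on the lower side was 1 member in Hydrogel, Alpl, where 1.48% of all genes were. In PCL there were 2, Alpl and Ibsp, against 1.27% of all genes, and Ibsp passed narrowly with limma's unadjusted p = 0.049995. In β-TCP there was 1, Ibsp, against 1.03%. No member was higher past that threshold against Control, where 0.807%, 2.37% and 2.49% of all genes were. The libraries of a scaffold group did not overlap with Control for 3, 4 and 3 members, all lower, against 15.1%, 18.2% and 22.9% of all genes. They were Runx2, Alpl and Mepe in Hydrogel, Runx2, Sp7, Alpl and Ibsp in PCL and Alpl, Ibsp and Mepe in β-TCP. The median log2 fold change of the members was -0.64 in Hydrogel, -0.37 in PCL and -0.37 in β-TCP, against 0.14, 0.04 and 0.03 over all genes. Without Hydrogel replicate 3 the median in Hydrogel was -0.26, and -0.13 with Control replicate 3 left out too. The median in PCL was -0.60 without PCL replicate 2 and -0.22 without PCL replicate 3, and that in β-TCP was -0.19 without Control replicate 3. The sign was negative for 9 members in Hydrogel, all except Bglap, for 10 in PCL and for 9 in β-TCP, all except Spp1. It was negative for 7 in PCL without PCL replicate 3 and for 7 in β-TCP without Control replicate 3. With the erythroid list left out of the library totals it was negative for 9, 8 and 9. The 3 comparisons share the Control libraries. Without Control replicate 3, 0 members in Hydrogel and 0 in PCL were past the study's threshold, and in β-TCP 1, which was Spp1 on the higher side. The count was also 0 in Hydrogel without Hydrogel replicate 3, 0 in PCL without PCL replicate 1 or 3, and 0 in β-TCP without Hydrogel replicate 1, any of the PCL libraries or β-TCP replicate 2 or 3.

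Markers of other cell types differed between the same groups. Of the 7 tested cartilage genes, 7 were lower past the study's threshold in each scaffold group, and 4 of them fell in β-TCP at limma's adjusted p under 0.05. None of the 4 calls was left with β-TCP replicates 2 and 3 averaged, without either of them or without PCL replicate 2, and 1 to 7 genes fell without one of the other 9 libraries. The cartilage list summed to 1855 to 12009 FPKM in Control, 72.9 to 636 FPKM in Hydrogel, 52.4 to 241 FPKM in PCL and 84.7 to 739 FPKM in β-TCP, with Matn1 at 0 in at least 1 library. Of the 4 hypertrophic cartilage genes, 0, 1 and 2 fell at the adjusted p, and with the β-TCP average 0 in each comparison. Leaving out 1 library gave 0 to 2 of them in PCL and in β-TCP. The 10 erythroid genes had a median log2 fold change of 2.05 in Hydrogel, 2.34 in PCL and 0.17 in β-TCP, and 0 passed the adjusted p, against 1, 6 and 0 at the unadjusted p. Their sums ran from 3630 to 59640 FPKM in Control, 40233 to 82759 FPKM in Hydrogel, 44582 to 131010 FPKM in PCL and 13375 to 29781 FPKM in β-TCP. The 7 tested neutrophil genes had medians of 2.01, 1.85 and 0.51 and the 10 tested skeletal muscle genes of 1.48, 1.56 and 0.11, with 0 genes past limma's adjusted or unadjusted p, and Ltf, Ckm, Myh1, Myh2, Myh4, Myh7 and Actn3 at 0 in at least 1 library. Of the 6 tested adipocyte genes, 0, 2 and 1 rose at the adjusted p (0, 1 and 0 with the β-TCP average, and 0 to 2 in PCL and β-TCP with 1 library left out), with medians of -0.13, -0.09 and 0.10, and Lep was at 0 in at least 1 library. The 5 endothelial genes had medians of -0.19, -0.42 and -0.05, with 0 past the adjusted p and 0, 2 and 0 at limma's unadjusted p. The part of these cell types in the levels of the members was not tested.

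Between the scaffold groups, the members differed mainly through Spp1. In PCL against Hydrogel 0 of 10 members passed limma's adjusted p, the study's threshold or an unadjusted p under 0.05, and the libraries overlapped for all 10. Of all genes, 0.103% passed the adjusted p, 0.546% were higher and 0.222% lower past the study's threshold, 8.23% had an unadjusted p under 0.05 and 20.5% did not overlap. In PCL against β-TCP 0 members passed the adjusted p, against 0.657% of all genes, and 1 member, Spp1, had an unadjusted p under 0.05, against 22.4%. Past the study's threshold were 0 members, against 3.34% of all genes on the higher and 1.14% on the lower side, and the libraries did not overlap for 2, Runx2 and Spp1, both lower in PCL, against 44.9%. In β-TCP against Hydrogel 1 member passed the adjusted p and 2, Spp1 and Runx2, had an unadjusted p under 0.05, against 34.4% of all genes. On the lower side 0 members were past the study's threshold, against 5.02%. The log2 fold change of Runx2 was 0.64 ± 0.27 (SE) in that comparison (limma, adjusted p = 0.125). The members whose libraries did not overlap numbered 3, Runx2, Alpl and Spp1, in a comparison where 57.6% of all genes did not overlap. The median over the members was 0.37, against -0.06 over all genes, and it was -0.02 without Hydrogel replicate 3, 0.56 without Hydrogel replicate 2 and 0.22 without β-TCP replicate 1.

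**Figure D2:**
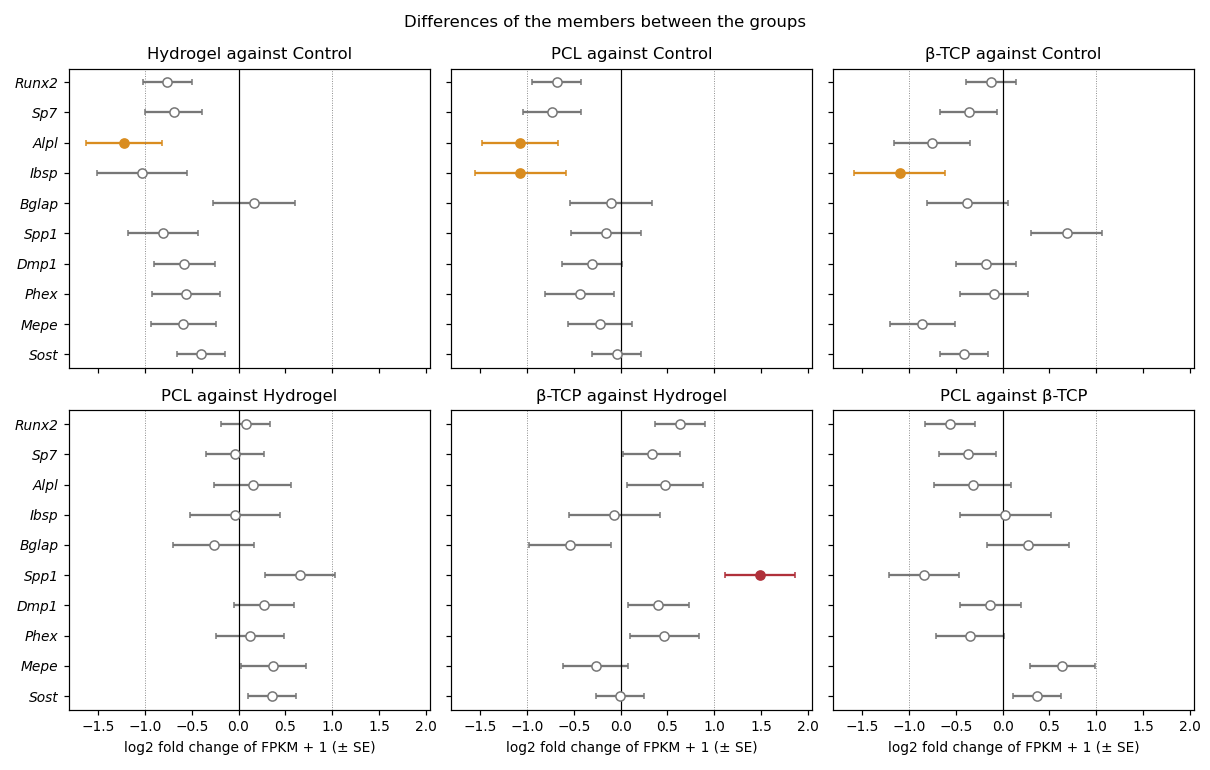
Log2 fold change of FPKM + 1 (horizontal axis, with a bar of 1 SE) of each gene in the 6 comparisons, where values below 0 mean lower in the group named first and dotted lines mark a fold change of 2 or 0.5. The red point, Spp1 in β-TCP against Hydrogel at 1.49, had an adjusted p under 0.05, and the orange points, Alpl and Ibsp against Control at -1.07 to -1.23, were past the study's threshold only.

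The members did not vary as 1 block over the libraries. Likeness was measured as the root mean square difference of log2(FPKM + 1), each gene centred on its mean, over the 12 libraries. Runx2 and Sp7 were nearest to each other, at 0.14. Dmp1 and Phex were at 0.16, Mepe and Sost at 0.24, and Alpl and Ibsp at 0.28. The pairs so formed were the 2 transcription factors, 2 genes of the osteocyte, Mepe with Sost, and the phosphatase with sialoprotein. Bglap and Spp1 were far from all others, with nearest members at 0.43 and 0.40, and stood farthest from each other at 0.90. Among the other genes tested, the pattern nearest to Runx2 was that of Shox2 at 0.092 and that nearest to Sp7 was Col24a1, a collagen of developing bone, at 0.092. Alpl was nearest to Rftn2 at 0.12, Ibsp to Ngef at 0.19 and Bglap to LOC688858 at 0.23. Spp1 was nearest to Foxs1 at 0.14, Dmp1 to Rapgef4 at 0.15, Phex to Ptprz1 at 0.12, Mepe to Gabrd at 0.25 and Sost to Fermt1 at 0.20. The libraries share depth and composition, which also enters these values.

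**Figure D3:**
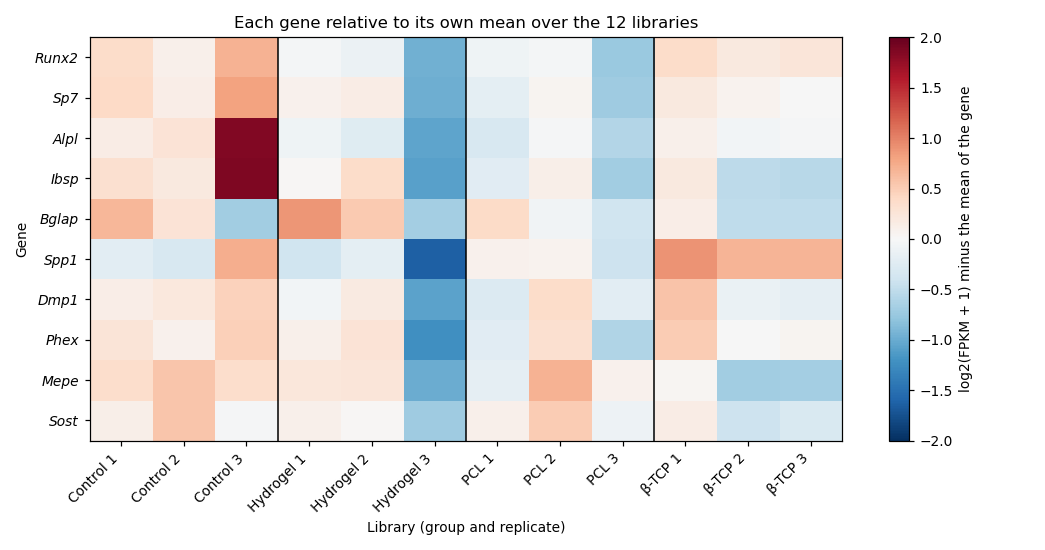
Each gene (row) in each library (column), as log2(FPKM + 1) minus the mean of that gene over the 12 libraries, from blue (lower) to red (higher). Hydrogel replicate 3 was blue in every row, Control replicate 3 was red for Alpl and Ibsp and blue for Bglap, and Spp1 was red in all 3 β-TCP libraries.

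A ratio of 2 genes within a library does not depend on the scaling of that library. The following ratios were picked after their values were seen and were not tested. The balance of osteopontin to bone sialoprotein differed between the materials. Spp1 over Ibsp was 2.54, 2.55 and 1.66 in the Control libraries, 2.75, 2.50 and 2.51 in Hydrogel, 4.59, 3.55 and 4.45 in PCL and 6.0, 8.46 and 8.65 in β-TCP. The β-TCP libraries were above all PCL libraries, and these above all Hydrogel and Control libraries. Hydrogel replicate 3, low for each gene alone, lay beside the other Hydrogel libraries in this ratio. Spp1 over Col1a1, the gene of the main collagen of bone, was 1.04, 0.970 and 0.971 in β-TCP, 0.661, 0.646 and 0.666 in PCL and at most 0.497 in Hydrogel. In Control it was 0.394, 0.483 and 0.668, so Control replicate 3 reached the level of PCL. Spp1 over Ctsk did not set β-TCP apart from Hydrogel. It was 1.29, 1.11 and 1.12 in β-TCP and 1.34, 1.13 and 0.954 in Hydrogel. It was 1.66, 1.47 and 1.52 in PCL and 1.33, 1.77 and 2.21 in Control. In this ratio the β-TCP libraries thus lay below all PCL and Control libraries.

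Among the osteocyte genes, Mepe stood in another ratio to Dmp1 and to Phex in β-TCP. Mepe over Dmp1 was 0.298, 0.292 and 0.303 in the β-TCP libraries and 0.400 to 0.549 in the other 9. Mepe over Phex was 1.54, 1.33 and 1.27 in β-TCP and 1.93 to 3.45 in the other 9. In both ratios β-TCP replicate 1, with the highest Dmp1 and Phex of all libraries, lay with replicates 2 and 3. Dmp1 over Phex did not set β-TCP apart, at 5.16, 4.55 and 4.21 against 4.42 to 6.54 in the other 9. Nor did the ratios of Dmp1, Phex or Mepe to Sost. Runx2 over Sp7 was 0.838, 0.820 and 0.893 in β-TCP and 0.614 to 0.802 in the other 9. In PCL, Sost over Alpl was 0.241, 0.264 and 0.253, above the 0.0482 to 0.224 of the other 9. Of the 45 ratios between members, the β-TCP libraries lay outside the other 9 in 12, 6 of them with Spp1, where 3.93% of all ratios of a member to another tested gene did so. The PCL libraries lay outside in 1 (background 0.436%), the Hydrogel libraries in 0 (1.5%) and the Control libraries in 0 (7.79%). Ratios that share a gene are not independent.

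**Figure D4:**
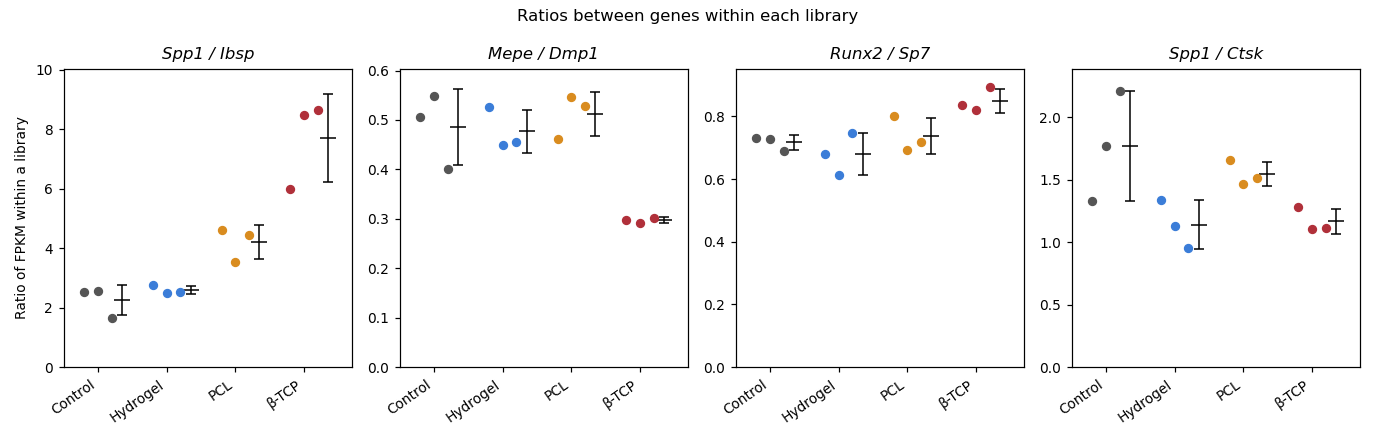
Ratio of the FPKM of 2 genes within each library (vertical axis, linear from 0) by group, with a point for each library and the mean with a bar of 1 SD. Spp1 over Ibsp was 6.0 to 8.65 in β-TCP against 1.66 to 4.59 in the other 9 libraries, Mepe over Dmp1 was 0.292 to 0.303 against 0.400 to 0.549, Runx2 over Sp7 was 0.820 to 0.893 against 0.614 to 0.802, and Spp1 over Ctsk overlapped between β-TCP and Hydrogel.

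Spp1, Mepe, Ibsp and Dmp1 are neighbours. In RefSeq they follow one another on rat chromosome 14, all on the minus strand, with no other protein-coding gene between them, and encode related phosphoproteins of mineralized tissue. The upstream sequences of Spp1, Mepe and Ibsp are shown, since ratios of these genes set the β-TCP libraries apart, with that of Bglap, whose pattern was farthest from that of Spp1. Runx2 binds a core written ACCACA or ACCGCA, which was searched on both strands in the 250 bases before the RefSeq start (build GRCr8, another build than the Rnor_6.0 of the deposited files). The motifs do not overlap each other in these windows. Sequences run 5′ to 3′ along the gene, and capitals mark a match.
Spp1, chr14:5619805-5620054, minus strand: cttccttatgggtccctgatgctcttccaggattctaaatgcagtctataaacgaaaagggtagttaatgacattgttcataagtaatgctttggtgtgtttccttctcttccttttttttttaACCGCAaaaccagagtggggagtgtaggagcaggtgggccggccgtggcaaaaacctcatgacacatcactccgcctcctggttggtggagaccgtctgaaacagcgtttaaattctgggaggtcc
Mepe, chr14:5736859-5737108, minus strand: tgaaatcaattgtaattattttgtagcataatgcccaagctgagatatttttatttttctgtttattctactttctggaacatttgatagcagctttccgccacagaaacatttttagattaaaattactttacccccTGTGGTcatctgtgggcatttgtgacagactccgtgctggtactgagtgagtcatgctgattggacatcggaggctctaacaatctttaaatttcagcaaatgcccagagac
Ibsp, chr14:5757243-5757492, minus strand: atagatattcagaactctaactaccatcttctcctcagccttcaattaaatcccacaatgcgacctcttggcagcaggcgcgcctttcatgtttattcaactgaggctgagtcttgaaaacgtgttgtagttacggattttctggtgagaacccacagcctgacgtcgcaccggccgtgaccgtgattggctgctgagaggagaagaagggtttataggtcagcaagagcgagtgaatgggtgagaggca
Bglap, chr2:176137319-176137568, minus strand: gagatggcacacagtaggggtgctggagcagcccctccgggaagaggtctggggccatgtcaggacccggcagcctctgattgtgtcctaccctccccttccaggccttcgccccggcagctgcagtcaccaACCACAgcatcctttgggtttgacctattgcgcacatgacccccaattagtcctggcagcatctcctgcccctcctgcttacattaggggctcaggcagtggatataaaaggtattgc
The Spp1 window holds ACCGCA at 126 to 121 bases before the start, Mepe holds ACCACA on the opposite strand at 112 to 107 bases, Bglap holds ACCACA at 118 to 113 bases and Ibsp holds neither. The Spp1 start used is one inside the outer bounds of the RefSeq gene. Of the 10 members 8 had a RefSeq promoter sequence at hand, all except Sp7 and Phex, and 4 of these 8 had a match, Runx2 being the other one. Counted by window, of which Runx2 had more than the other members, 4 of 9 held a match. Of 33469 rat promoters of this length, 14.5% hold ACCACA, 5.02% ACCGCA and 19.0% either. A match is a description of the letters and not a measured binding site.

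The wider osteoblast program was read from lists of genes that are no members. Of 14 tested osteoblast regulators, 0 passed limma's adjusted p in any scaffold group against Control, against 5, 4 and 4 at an unadjusted p under 0.05, and their median log2 fold change was -0.34, -0.52 and -0.27. In β-TCP against Hydrogel 1 passed: Msx1, a homeobox factor of bone progenitors, rose by 0.75 ± 0.18 (SE; adjusted p = 0.0402), a call kept in 14 of 27 alternatives and ended by leaving out any of 8 libraries, which were Control replicate 1, each Hydrogel library, PCL replicates 1 and 2 and β-TCP replicates 2 and 3. Cbfb, the partner that stabilizes Runx2 on DNA, had a log2 fold change of 0.06 ± 0.17 (SE), -0.34 ± 0.17 and 0.01 ± 0.17. Pth1r, the receptor of parathyroid hormone on osteoblasts, had -1.44, -1.36 and -1.11, with adjusted p = 0.312, 0.165 and 0.157. Of 19 tested genes of bone matrix and mineralization, 0, 0 and 1 passed against Control, and the medians were -0.74, -0.69 and -0.24. Lower than Control were 17, 16 and 12 of the 19. At limma's unadjusted p under 0.05 there were 10, 7 and 3, against 15.0%, 18.4% and 18.0% of all genes. Col1a1 was at 10515, 7902 and 11860.0 FPKM in Control, at 8945, 8401 and 3635 FPKM in Hydrogel, at 7695, 7749 and 5370.3 FPKM in PCL and at 8537, 7852 and 7887 FPKM in β-TCP, with adjusted p of at least 0.312 in the 6 comparisons. The gene that passed was Fam20c, the kinase that phosphorylates secreted mineral proteins, osteopontin among them. It rose in β-TCP by 1.39 ± 0.21 (SE) on the log2 scale against Control (adjusted p = 0.0125) and by 1.59 ± 0.21 against Hydrogel (adjusted p = 0.0088). Ankh, a pyrophosphate transporter that restrains mineral growth, rose in β-TCP against Hydrogel by 1.07 ± 0.21 (adjusted p = 0.0199). With β-TCP replicates 2 and 3 averaged these calls were lost, at limma's adjusted p = 0.0782 and 0.051 for Fam20c and 0.0861 for Ankh. They were also lost without β-TCP replicate 2 or 3, and that of Ankh without Hydrogel replicate 3. These names were picked after their values were seen.

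The 13 tested osteocyte genes outside the members had a median log2 fold change against Control of -0.39 in Hydrogel, -0.36 in PCL and 0.16 in β-TCP. Of the 13, 13, 11 and 5 were lower. In Hydrogel and PCL 0 passed limma's adjusted p against Control. There 4 and 3 had an unadjusted p under 0.05, against 15.0% and 18.4% of all genes. In β-TCP 3 genes rose at the adjusted p against Control and the same 3 against Hydrogel, and 0 fell. They were Capg, Cd44 and Sfrp4, with log2 fold changes of 1.24 ± 0.26 (SE), 1.12 ± 0.18 and 0.67 ± 0.17 against Control (limma, adjusted p = 0.0297, 0.0141 and 0.0486) and 1.58 ± 0.26, 1.20 ± 0.18 and 0.997 ± 0.17 against Hydrogel (adjusted p = 0.013, 0.0103 and 0.0131), names again picked after their values were seen. With β-TCP replicates 2 and 3 averaged, or either left out, 0 genes of the list passed in either comparison. Against Control, Sfrp4 passed in 7 of 27 alternatives, Capg in 16 and Cd44 in 24. Against Hydrogel these were 24, 23 and 24, with Capg lost without Hydrogel replicate 3. Leaving out 1 library ended the call against Control for Capg with Control replicates 1 and 2, Hydrogel replicate 1 and PCL replicate 2 as well, and for Sfrp4 with all libraries except Hydrogel replicates 1 and 3. Capg, an actin-capping protein, and Cd44, a receptor of hyaluronan and osteopontin, are also abundant in macrophages and osteoclasts. Sfrp4 is a secreted inhibitor of Wnt. The list's most abundant genes, Gja1, Dstn and Mmp14, did not pass in any of the 6 comparisons. Of 8 tested genes of sclerostin and Wnt signaling, 0 passed the adjusted p in any comparison, and at limma's unadjusted p under 0.05 there were, against Control, 1 in Hydrogel, 2 in PCL and 2 in β-TCP. The receptors of sclerostin, Lrp4, Lrp5 and Lrp6, had log2 fold changes between -0.52 and -0.06 against Control. Fgf23, a phosphate hormone of osteocytes, and Tnfsf11, the gene of RANKL, were listed at 0 in at least 1 library.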

How the data were processed

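Poly(A) RNA from rat femur defects was sequenced in 12 libraries, and groups were taken from the sample labels. The material was newly formed tissue in Control and the niche with its scaffold in the other groups. The deposited values are FPKM from Cufflinks, which the authors computed after trimming with Trimmomatic and mapping with HISAT2. The submitters' processing notes list the build Rnor_6.0 and, without versions or roles, StringTie, Bowtie, HTSeq and DESeq. The study's methods and the sample labels name different extraction kits, library kits and sequencers, and whether strand was used in counting is not given in the sources used here, so reads of overlapping genes cannot be told apart. The deposited file has 3 more columns that fit no sample label, which were left out.

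The 12633 genes that reached 1 FPKM in 3 or more libraries were tested on log2(FPKM + 1) with limma 3.58.1 (R 4.3.3). All 12 libraries entered one fit with a mean per group and a trended empirical Bayes step, p-values were two-sided, and Benjamini-Hochberg adjustment ran over all genes tested. A fold change on this scale understates that of low genes. A gene was called where its adjusted p was under 0.05. The study's own threshold, p under 0.05 before adjustment and a ratio above 2 or below 0.5, was counted beside it. The test was also run on simulated data with known changes in β-TCP, in which all libraries varied independently. That simulation held no pair as alike as β-TCP replicates 2 and 3, so it cannot speak for the calls in these data. Whole fragments came out for all 18684 genes above 0, within 0.01 of a whole number. The members, the lists and the tests were chosen with earlier results of these data known. The 10 members are named in full, and from each of 13 lists (osteoblast regulators, bone matrix and mineralization, osteocyte, sclerostin and Wnt, osteoclast, macrophage, cartilage, hypertrophic cartilage, erythroid, neutrophil, skeletal muscle, adipocyte and endothelial genes) the genes with the highest mean FPKM, with further names from counts of 5 or fewer. Of 139 list symbols 137 matched by name, 1 by synonym and 1 did not match. The gene most like a member was taken among genes with a standard deviation of at least that of the member divided by 2. Alternatives were pseudocounts of 0.1 and 0.5, a mean filter or no filter on low values, quantile or median-of-ratios normalization, totals without the erythroid or the muscle list, a fit of the 2 groups compared, a replicate block, no trend, weights per library, limma-voom on the recovered fragments, β-TCP replicates 2 and 3 averaged, each library left out in turn and, chosen after seeing the data, Control replicate 3 and Hydrogel replicate 3 both left out. Promoter sequences are those of RefSeq (GRCr8), whose gene table served only for names and neighbours. Values were summarised with Python 3.11.15, pandas 2.3.3, numpy 2.4.6 and matplotlib 3.10.9.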

Additional observations from a re-analysis of the deposited data

How the results depend on the processing

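Over 27 alternatives, 1506 of the 1620 fold changes of a member kept their direction and side of the adjusted threshold. Much of this was fixed in advance. Leaving out a library of a group not compared does not alter a fold change. Nor do the filters, the replicate block, no trend or the fit of the 2 groups, so the direction could not change there. Of the 60 pairs of a member and a comparison, 25 changed sign in some setting. Only Spp1 in β-TCP against Hydrogel was called in the report, so the other pairs could change side only by gaining a call. The call of Spp1 in β-TCP against Hydrogel was lost in 14 of 27. The number of members past the adjusted p in that comparison, 1 in the report, was 0 without a filter on low values, with the erythroid list out of the total, with limma-voom and with β-TCP replicates 2 and 3 averaged, 0 to 1 with a library left out, and 2 (Spp1 higher, Bglap lower) with Control replicate 3 and Hydrogel replicate 3 both left out, a setting that called 17.0% of all genes there. It also called Spp1 in β-TCP against Control (1 member, higher, with 19.1% of all genes) and in PCL against β-TCP (1 member, lower, with 22.0%). Fitting just the 2 groups at hand called 1 member, Spp1, in PCL against β-TCP, with 17.3% of all genes. Weights per library, whose estimation stopped before it converged and which gave Control replicate 1 a weight of 40.6 and Control replicate 3 one of 0.0439, called, against Control, 3 members in Hydrogel, 5 in PCL and 6 in β-TCP, 1 in PCL and 4 in β-TCP against Hydrogel and 5 in PCL against β-TCP, where in the same order 33.0%, 57.8%, 67.6%, 19.6%, 58.9% and 54.3% of all genes were called, and reversed the sign of Sost in PCL against Control to 0.32 (limma, adjusted p = 0.018).

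At the study's threshold, Hydrogel against Control (1 member in the report) gave 2 with quantile normalization, 0 with a fit of the 2 groups, with weights or with both doubted libraries left out, and 0 to 3 with a library left out. PCL against Control (2) gave 1 with either pseudocount, no filter or a mean filter on low values, median-of-ratios scaling, no trend, limma-voom or the β-TCP average, 0 with the erythroid list out of the total, a fit of the 2 groups, weights or both libraries left out, and 0 to 2 with a library left out. β-TCP against Control (1) gave 0 without a filter, with median-of-ratios scaling, a fit of the 2 groups or the β-TCP average, 2 with quantile normalization, and 0 to 2 with a library left out. β-TCP against Hydrogel (1) gave 2 with weights, and PCL against β-TCP (0) gave 1 with quantile normalization or weights. The cause of these shifts was not tested.

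Replicate numbers did not pair the libraries: of 18 pairs with the same number, 4 correlated above 0.1 (-0.61 to 0.47), and 6 correlated best with their own number. With the replicate block, 0 members passed in β-TCP against Hydrogel (Spp1 at 1.49, limma, adjusted p = 0.0924), and past the study's threshold the count against Control was 1 for PCL and 0 for β-TCP.

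With 3 libraries a group, of which 2 in β-TCP were nearly alike, the SE of a member's log2 fold change was 0.26 to 0.48. Differences of this size could not be told from 0, and larger ones went uncalled too. Alpl in Hydrogel against Control, at -1.23 ± 0.41 (SE), had limma's adjusted p = 0.312. Without Control replicate 3, Alpl and Ibsp were not past the study's threshold against Control in any scaffold group.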
